A study of Mus musculus with 16 samples.

Results

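The genes described here are 43 genes of the cell cycle and of DNA replication, chosen by symbol from the 53800 genes of the count table. They fall into 6 roles: 12 genes of origin licensing and the replicative helicase, 4 of the sliding clamp and nucleotide supply, 5 D-type cyclins and their kinases, 5 genes of entry from G1 into S phase, 3 inhibitors of cyclin-dependent kinases (CDKs), and 14 genes of G2 and mitosis. All 43 passed the filter on low counts, which left 15501 genes to test. The libraries are polyA RNA-seq of the tip of the forelimb bud of B6 mouse embryos at 4 stages 1 day apart, named by embryonic day (E) from E9.5 to E12.5. Each tip was loosened with trypsin and pulled apart into its ectoderm, the epithelial jacket, and its mesoderm, the core under it. That gives 8 groups of 2 libraries, and both layers of a replicate were taken from one batch of embryos. No genetic change or drug treatment is labelled in any group, and the number of embryos in a batch was not found in the labels.

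A cell copies its genome in S phase and divides in mitosis, with the gaps G1 and G2 between. In G1 the proteins Cdc6 and Cdt1 load the Mcm2-7 helicase onto replication origins. D-type cyclins with Cdk4 and Cdk6, then cyclin E with Cdk2, phosphorylate the retinoblastoma protein and release E2F factors, which switch on genes for DNA synthesis. Cyclin A and cyclin B with Cdk1 drive the later phases, and CDK inhibitors such as p21 (Cdkn1a) and p27 (Cdkn1b) hold the kinases back. In the limb bud the mesoderm proliferates strongly under signals from the apical ectodermal ridge, a thickening of the distal ectoderm whose cells are known to divide slowly and to contain p21.

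Total counts per library ran from 10005867 to 30438214, and the lowest count of any member in any library was 1. Levels are given as CPM, counts scaled to a library of 1000000 with TMM factors. CPM can be compared between libraries for one gene. Other levels are the authors' FPKM values, which are also per length and can be compared between genes. Differences are log2 ratios from edgeR's quasi-likelihood test with their standard error (SE), and a gene is called where its Benjamini-Hochberg adjusted p over all 15501 genes is under 0.05. The summed level of 14 surface epithelium markers ran from 2690 to 7400 CPM in ectoderm and from 29.8 to 108 CPM in mesoderm. That of 12 limb mesenchyme markers ran from 482 to 1510 CPM in ectoderm and from 2670 to 5760 CPM in mesoderm. Ectoderm E11.5 replicate 1 stood apart: its mesenchyme markers had a median of 42.3% of their level in the mesoderm library of the same batch, against 3.72% to 18.3% in the other 7 ectoderm libraries. Counts of calls between layers averaged over the stages or at E11.5, and the E11.5 differences of Cdkn1a and E2f2, are given with and without this library; other E11.5 values include it. Mesoderm also held more RNA of blood and vessels: 10 erythroid markers summed to 2360 to 5250 CPM there and 12.7 to 752 CPM in ectoderm, and 10 endothelial markers to 372 to 681 and 4.96 to 28.5 CPM. The part of these other cells in the differences between layers was not tested. Replicates 1 and 2 were purified with different RNA kits, RNeasy Plus Mini and RNeasy Mini, so embryo batch and kit cannot be told apart.

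Promoter sequences were searched for letters that genes of a role may share. RefSeq (GRCm38.p6) promoter windows, from 250 bases before to 50 bases after a transcription start, were found for 35 of the 43 genes, 40 windows in all. They were searched on both strands for the E2F letters TTTCCCGC, TTTCGCGC, TTTGCCGC or TTTGGCGC, for the cell cycle homology region (CHR) letters TTTGAA, and for CCAAT. E2F is the factor family named above, CHR elements are bound by the MuvB complexes that act on genes of late S phase, G2 and mitosis, and CCAAT is the box bound by NF-Y. Of all 32851 mouse promoter windows of this length, 2.26% held the E2F letters, 17.9% CHR and 37.4% CCAAT. Among the 10 licensing and helicase windows, 6 held E2F, 2 held CHR and 8 held CCAAT. The 12 windows of G2 and mitosis genes held E2F in 1, that of Cdk1, CHR in 10, and CCAAT in all 12. The 5 G1 to S windows held E2F in 2, those of Cdk2 and the first start of E2f2. No window of the clamp and nucleotide, D-type cyclin or CDK inhibitor genes held the E2F or CHR letters. A match of letters is a description and does not show that a factor binds there. Only these exact letters were searched, so a window without a match is not shown to lack a site. 4 stretches with E2F letters from licensing and helicase promoters are shown as examples of these matches, printed 5′ to 3′ on the strand of the gene with the E2F letters of either strand in capitals. In Mcm5 and Mcm6 a match on each strand overlaps into 1 run of 12 capitals. Windows follow the RefSeq starts, which can differ from the gene positions of GENCODE M21 given below. The Cdc6 stretch lies past the GENCODE start of that gene (98907801), and the Mcm7 stretch lies inside the GENCODE span of that gene.
Cdc6 (chr11:98907987-98908046, plus strand): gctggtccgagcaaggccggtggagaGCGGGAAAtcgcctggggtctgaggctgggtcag
Mcm5 (chr8:75109330-75109389, plus strand): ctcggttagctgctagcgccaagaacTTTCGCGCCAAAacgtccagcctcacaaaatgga
Mcm6 (chr1:128359782-128359841, minus strand): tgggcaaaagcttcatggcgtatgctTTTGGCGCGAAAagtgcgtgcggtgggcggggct
Mcm7, second start (chr5:138172015-138172074, minus strand): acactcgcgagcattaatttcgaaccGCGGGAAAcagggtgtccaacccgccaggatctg

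6 promoters of G2 and mitosis genes are examples of the CHR and CCAAT matches, shown over the 100 bases just before the start, with CHR and CCAAT letters of either strand in capitals. In Cdc20, Cdk1, Kif11, Top2a and Ube2c a CHR match lies within 29 bases of the start with at least 1 CCAAT further out. In Mki67 the CHR match begins 98 bases before the start and no CCAAT lies in the stretch shown.
Cdc20 (chr4:118437344-118437443, minus strand): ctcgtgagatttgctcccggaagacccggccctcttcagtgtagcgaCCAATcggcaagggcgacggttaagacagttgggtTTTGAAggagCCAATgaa
Cdk1 (chr10:69352913-69353012, minus strand): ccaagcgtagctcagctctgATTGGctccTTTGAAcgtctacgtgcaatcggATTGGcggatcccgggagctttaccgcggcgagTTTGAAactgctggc
Kif11 (chr19:37376282-37376381, plus strand): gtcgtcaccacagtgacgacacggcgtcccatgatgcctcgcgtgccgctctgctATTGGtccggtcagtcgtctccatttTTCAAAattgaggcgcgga
Mki67 (chr7:135716380-135716479, minus strand): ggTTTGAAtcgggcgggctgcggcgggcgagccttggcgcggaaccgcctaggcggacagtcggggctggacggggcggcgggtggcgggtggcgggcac
Top2a (chr11:99024190-99024289, minus strand): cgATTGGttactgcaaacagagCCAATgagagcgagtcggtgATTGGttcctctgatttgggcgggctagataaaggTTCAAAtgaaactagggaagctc
Ube2c (chr2:164769829-164769928, plus strand): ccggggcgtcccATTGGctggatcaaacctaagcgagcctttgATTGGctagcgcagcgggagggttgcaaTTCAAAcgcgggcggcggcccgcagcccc

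**Figure D1:**
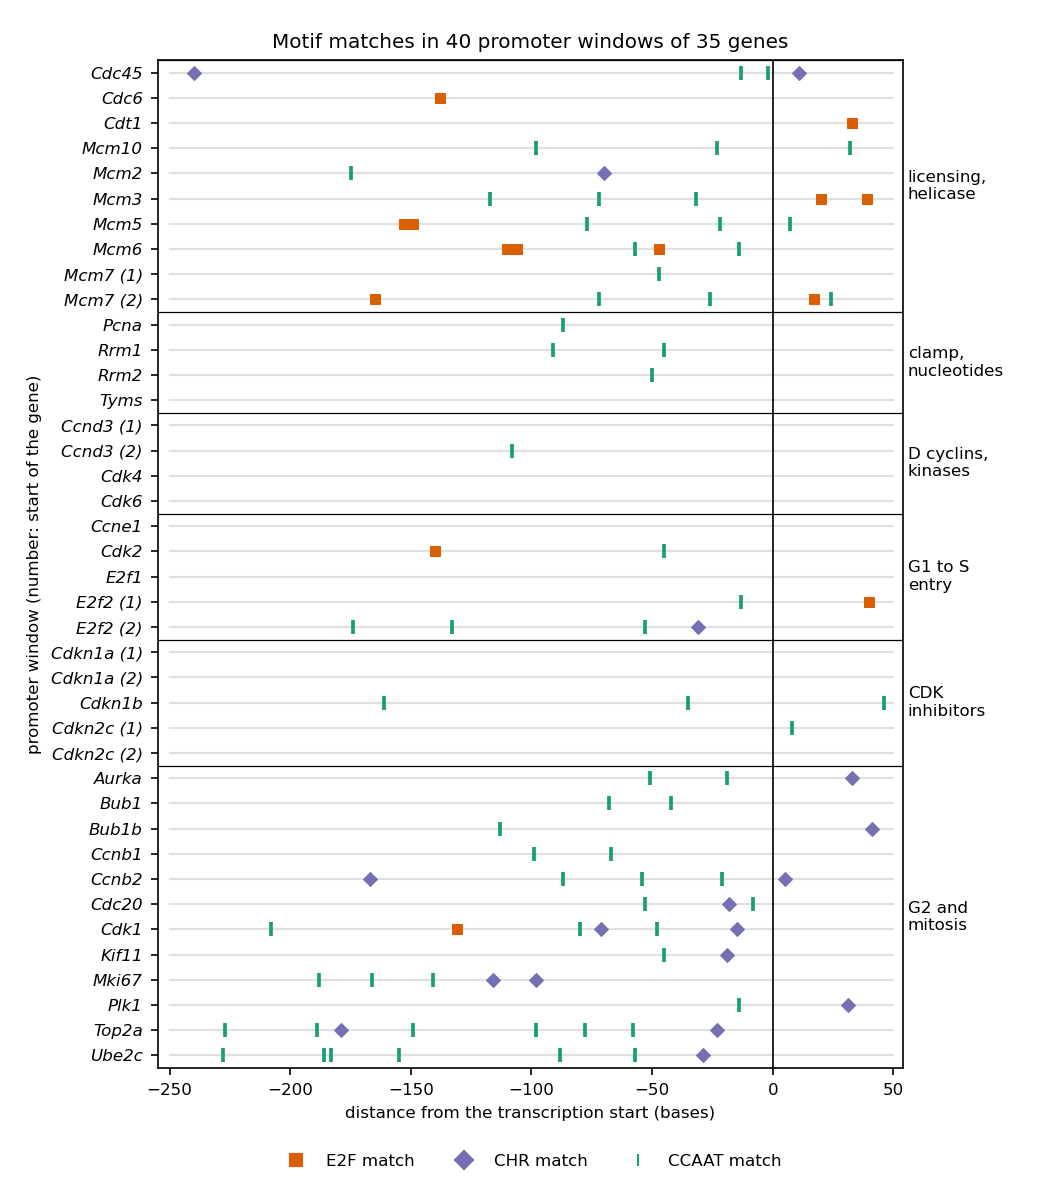
Positions of E2F, CHR and CCAAT matches in the 40 promoter windows of 35 genes, by role, with the distance in bases from the transcription start on the horizontal axis. E2F matches sit in 6 of 10 licensing and helicase windows and CHR matches in 10 of 12 windows of G2 and mitosis genes.

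The first comparison asked how the genes differ between ectoderm and mesoderm, averaged over the 4 stages. Most were lower in ectoderm: 29 of the 43 were called lower and 2 higher, where 45.7% of all genes were called in either direction, 24.3% higher and 21.4% lower. The median difference over the members was -0.46 on the log2 scale, against 0.01 over all genes. A fit that blocks on embryo batch, and so compares the layers within each batch, called 35 members lower and 5 higher, where 65.9% of all genes were called. Without ectoderm E11.5 replicate 1, 34 were called lower and 1 higher. When each of the 16 libraries was left out in turn, 24 of the 31 calls held every time; the other 7 were those of Cdt1, Ccnd1, Ccnd2, Ccnb2, Aurkb, Plk1 and Bub1. Batch by batch, 27 members were lower in ectoderm in all 8 batches, as were 18.5% of all genes. Cdkn1a alone was higher in all 8, as were 21% of all genes. In bulk libraries, fewer cells of a type and less RNA per cell cannot be told apart.

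At single stages the counts were smaller. At E9.5, 7 members were called lower (8.29% of all genes) and 2 higher (13.1%, together 21.4%), and the fit that blocks on batch called 23 and 5 (42.4% of all genes). At E10.5 the calls were 12 lower (10.2%) and 2 higher (16.2%, together 26.4%), and 32 and 3 with the block (48.6%). At E11.5 they were 11 lower (7.69%) and 1 higher (12.9%, together 20.6%), 34 and 2 with the block (40%), and 14 and 1 without ectoderm E11.5 replicate 1. At E12.5 they were 11 lower (13.2%) and 1 higher (13.3%, together 26.4%), and 31 and 3 with the block (45.7%). The genes called lower at every stage were Cdc6, Cdc45, Pcna, Rrm2, Ccne1 and Ccna2, and the one called higher at every stage was Cdkn1a. The share of all genes called at every stage was not counted. With any 1 library left out, Cdkn1a and Rrm2 kept their calls at all 4 stages, and each of the other 5 lost at least 1. The E12.5 call of Cdc45 was lost in 13 of 16 such cases, with adjusted p up to 0.209. Calls of Pcna and Ccna2 were lost in 1 to 4 cases at each stage. Those of Cdc6 were lost in 2 or 3 cases at all stages but E11.5, and those of Ccne1 in 1 to 3 cases at all stages but E9.5. Dropping the low-count filter ended the E12.5 calls of Cdc45, Pcna, Ccne1 and Ccna2, the E9.5 calls of Cdc45, Pcna and Ccna2, and the E11.5 call of Ccna2.

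**Figure D2:**
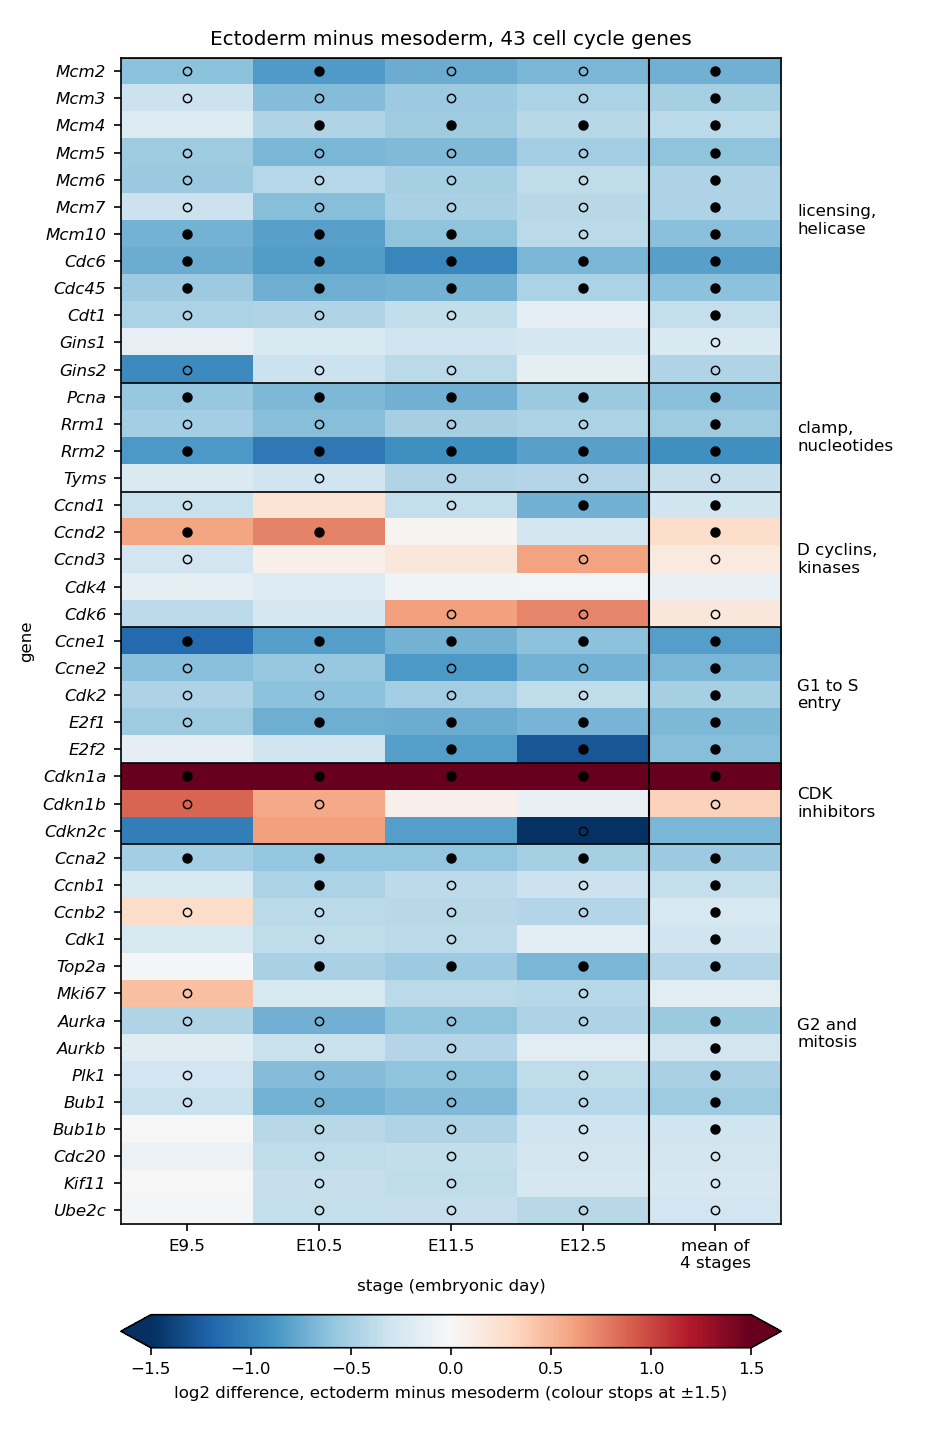
Heat map of the log2 difference, ectoderm minus mesoderm, for the 43 genes (rows, by role) at each of 4 stages and in their mean (columns), with the colour scale stopping at 1.5 in either direction. A filled dot marks a called gene and an open dot one called only when blocking on batch; Cdkn1a, at 5.05 in the mean, is beyond the scale, and most other genes are on the side of mesoderm.

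Among the licensing and helicase genes, 10 of 12 were called lower in ectoderm on the mean (21.4% of all genes), and all 12 with the block. That fit called 65.9% of all genes in either direction. Mcm2, a subunit of the replicative helicase (chr6:88883474-88898780, minus strand, mm10), ranged from 225 to 411 CPM with a median of 334 over the 8 ectoderm libraries, and from 387 to 699 CPM with a median of 534 over the 8 mesoderm libraries. The ranges overlap narrowly over all stages, and its difference was -0.72 (SE 0.13, adjusted p = 0.000769 by edgeR). The other helicase subunits followed at -0.60 for Mcm5, -0.50 for Mcm3, -0.47 for Mcm6, -0.46 for Mcm7 and -0.40 for Mcm4. Cdc6, the loader of the helicase, had ectoderm levels of 82.2 and 86.9 CPM at E9.5, then 74.5 and 57.5, 38.0 and 45.3, and 49.2 and 43.3 on the next 3 days (replicates 1 and 2). In mesoderm its levels were 147 and 137 CPM, 131 and 104, 70.9 and 93.2, and 78.7 and 70.4 at the same stages. Every mesoderm library was above both ectoderm libraries of its stage, and the mean difference was -0.81 (SE 0.10, adjusted p = 2.66e-05). Cdc45, which joins the helicase as it starts to unwind DNA, ranged from 43.6 to 60.9 CPM in ectoderm and from 62.4 to 95.2 CPM in mesoderm, so the layers did not overlap in any library; its difference was -0.61. Of the 43 genes, Cdc45 and Ccna2 had every ectoderm library below every mesoderm library, a pattern that 4.43% of all genes showed. Mcm10, which acts in helicase activation, differed by -0.63 (SE 0.07, adjusted p = 1.45e-05), and Cdt1, the partner of Cdc6, by -0.36. The GINS subunits gave -0.23 for Gins1 and -0.46 for Gins2 and were called only with the block. Gins2 shares 67.3% of its exonic bases with the opposite-strand gene Gse1, and no source used here says whether the counting used strand, so its counts are uncertain.

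Of the clamp and nucleotide genes, 3 of 4 were called lower in ectoderm (21.4% of all genes) and all 4 with the block (65.9% in either direction). Rrm2, the small subunit of ribonucleotide reductase, which makes deoxyribonucleotides (chr12:24708241-24714146, plus strand), was at 339.9 and 364 CPM in ectoderm at E9.5, then 288 and 269, 272 and 222, and 184 and 198 on the next 3 days. In mesoderm it was at 646 and 629 CPM, 595 and 577, 397 and 537, and 328 and 344. The groups did not overlap at any stage, and the layer difference was -0.92 (1.89-fold lower in ectoderm, SE 0.08, adjusted p = 2.77e-06), the largest fall among the 43 genes. Within batches the difference ran from -1.28 to -0.55, and the smallest was in the batch of ectoderm E11.5 replicate 1. Rrm1, the large subunit, differed by -0.53, and Pcna, the clamp that holds polymerases on DNA, by -0.63. The processed pseudogene Pcna-ps2 carried counts of 11% to 14.9% of those of Pcna, so reads may be split between them. Tyms, which makes thymidylate, had a difference of -0.35 that was called only with the block.

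The D-type cyclins did not move together. Ccnd2 (chr6:127125162-127152193, minus strand) was at 674 and 802 CPM in ectoderm at E9.5 and 410 and 574 in mesoderm. At E10.5 it was at 1054 and 978 CPM against 573 and 642, at E11.5 at 740 and 928 against 865 and 762, and at E12.5 at 918 and 891 against 1060 and 1131. Ectoderm was thus above mesoderm at E9.5 and E10.5, overlapped with it at E11.5 and was below it at E12.5. The difference was 0.59 at E9.5 (adjusted p = 0.0496) and 0.74 a day later (adjusted p = 0.0136), then 0.04 and -0.28, neither called. Its mean difference of 0.27 (adjusted p = 0.0361) was not called under RLE scaling, at 0.25 and an adjusted p of 0.0535. It was also lost under total counts, without the low-count filter and with FPKM (0.17, adjusted p = 0.107), and in 12 of 16 cases with 1 library left out, ectoderm E11.5 replicate 1 among them (0.26). Leaving out 1 library ended the E9.5 call in 14 of 16 cases, and the E10.5 call without ectoderm or mesoderm E10.5 replicate 1 (highest adjusted p 0.103). Ccnd1 was lower in ectoderm at E12.5, at 315 and 237 CPM against 459 and 447 in mesoderm, a difference of -0.72 (adjusted p = 0.0314), and by -0.30 on the mean (adjusted p = 0.043). With 1 library left out the mean call of Ccnd1 was lost in 11 of 16 cases. Its E12.5 call was lost without ectoderm E9.5 replicate 1, ectoderm E12.5 replicate 2 or either mesoderm E12.5 replicate (-0.94 to -0.52 over the 16 cases, highest adjusted p 0.236). Ccnd3 was called at E12.5 only with the block, where its level was 409.5 and 241.5 CPM in ectoderm and 256 and 171 in mesoderm. Replicates differed as much as layers there, and the difference of 0.61 was seen within each batch, at 0.68 and 0.50. Cdk6 was likewise higher in ectoderm at E11.5 and E12.5 only with the block (0.62 and 0.73), and Cdk4 was not called at any stage (mean -0.11).

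All 5 genes of entry into S phase were called lower in ectoderm on the mean, as were 21.4% of all genes. Ccne1, cyclin E1 (chr7:38097984-38107534, minus strand), was at 92.2 and 97.4 CPM in ectoderm at E9.5, then 63.8 and 47.9, 49.6 and 39.8, and 36.2 and 35 on the next 3 days. In mesoderm it was at 225 and 201 CPM, 105 and 91.8, 70.7 and 75.3, and 57.2 and 51.9. At every stage both mesoderm libraries were above both ectoderm libraries, with a mean difference of -0.83 (1.78-fold lower, SE 0.09, adjusted p = 8.36e-06). Ccne2, its paralog, differed by -0.69, Cdk2, their kinase, by -0.50, and E2f1, an activating E2F, by -0.68 (SE 0.09, adjusted p = 7.7e-05). E2f2, the other activating E2F measured here (chr4:136172394-136196057, plus strand), was at 11.4 and 15.1 CPM in ectoderm and 15.5 and 13.8 in mesoderm at E9.5. Its levels were 26.6 and 21.4 against 29.2 and 29.9 CPM at E10.5, 23.9 and 19.0 against 37.5 and 38.8 at E11.5, and 23.4 and 16.6 against 51.8 and 45.5 at E12.5. The layers overlapped at E9.5 and lay apart from E10.5 on. The difference was -0.14 at E9.5 and -0.30 at E10.5, neither called, then -0.83 (adjusted p = 0.0172) and -1.28 (adjusted p = 0.000943). Without ectoderm E11.5 replicate 1 the E11.5 difference was -1.06 (adjusted p = 0.0191). The E11.5 call was lost without ectoderm replicate 2 or either mesoderm replicate of that stage (highest adjusted p 0.164), and the E12.5 call held with any 1 library left out.

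The inhibitor Cdkn1a gave by far the widest gap between layers. This gene for p21 (chr17:29090976-29100727, plus strand) was at 52.2 and 49.0 CPM in ectoderm at E9.5, then 159.9 and 121, 56.1 and 143.5, and 76.2 and 53.1 on the next 3 days. In mesoderm it was at 2.68 and 1.23 CPM, 3.55 and 3.21, 2.39 and 2.13, and 3.31 and 1.53. The lowest ectoderm library was far above the highest mesoderm library. No other member had every ectoderm library above every mesoderm library, a pattern that 8.5% of all genes showed. The mean difference was 5.05, 33.1-fold higher in ectoderm (SE 0.26, adjusted p = 2.79e-08), and it was called at all 4 stages under every setting tried. The lower E11.5 value is that of the ectoderm library with the high mesenchyme level; the E11.5 difference was 5.45 with it and 5.92 without it. Within ectoderm the change from E9.5 to E10.5 was 1.48 (adjusted p = 0.0998), and it was called with replicate number as a block (1.47, adjusted p = 0.0181). Cdkn1b, which encodes p27, was at 32.0 and 51.5 CPM in ectoderm and 22.4 and 23.4 in mesoderm at E9.5, a difference of 0.87 that was called only with the block; its mean difference of 0.35 also needed the block. Cdkn2c, an inhibitor of Cdk4 and Cdk6, was not called between layers, with a difference of -0.68. It was the lowest member by FPKM, with a median of 0.639 in ectoderm and 0.579 in mesoderm.

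**Figure D3:**
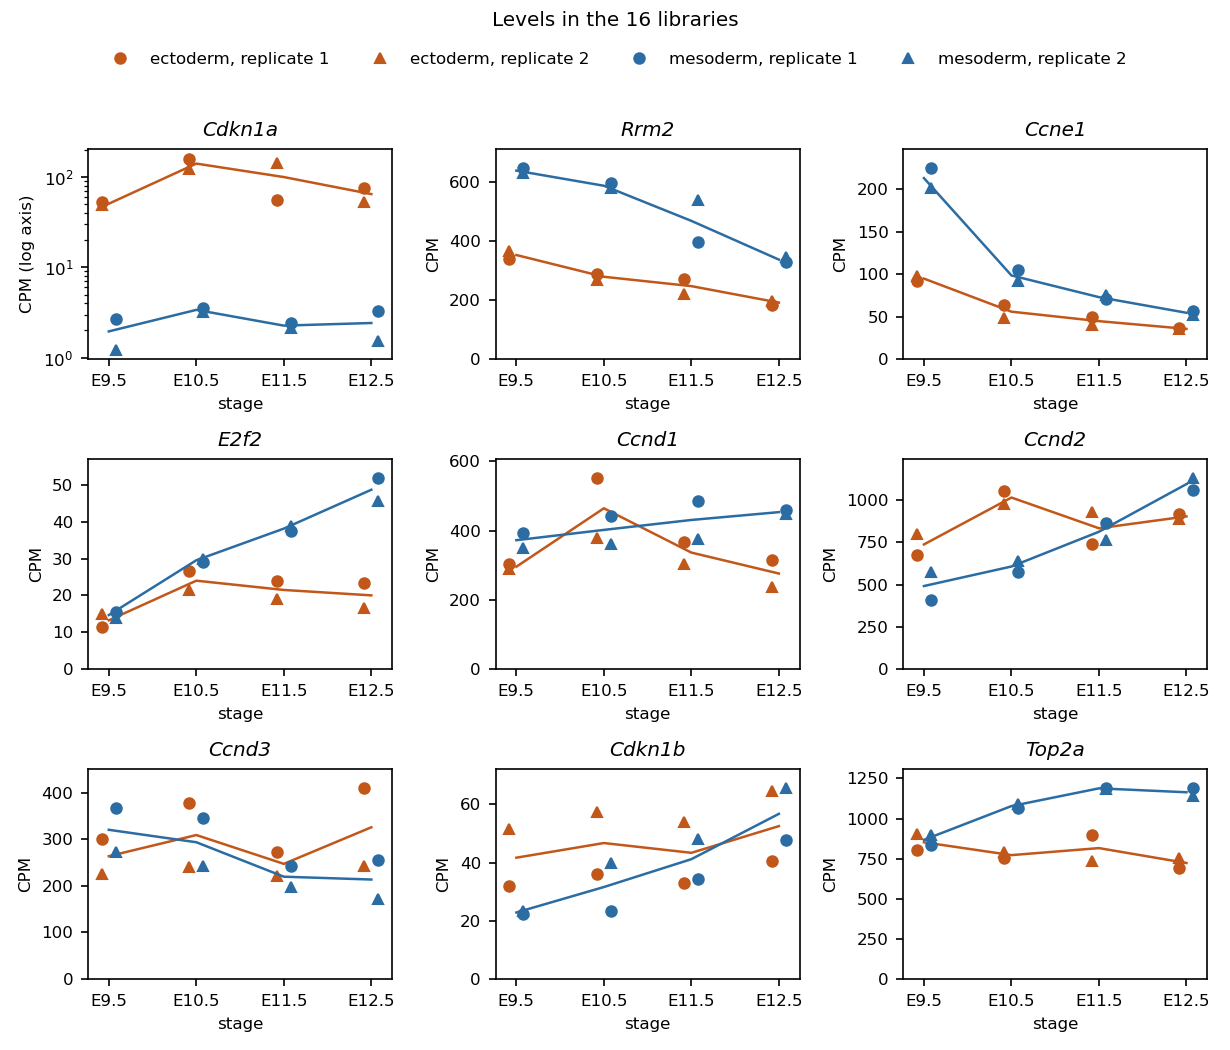
CPM in each of the 16 libraries by embryonic day for 9 of the genes, with circles for replicate 1, triangles for replicate 2 and lines through the means of the 2 replicates; the Cdkn1a panel has a log axis. Rrm2 and Ccne1 fall in both layers, E2f2 rises mainly in mesoderm, and every ectoderm library is above every mesoderm library for Cdkn1a (49.0 to 159.9 against 1.23 to 3.55 CPM).

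In the G2 and mitosis set 10 of 14 genes were called lower in ectoderm on the mean (21.4% of all genes), and 13 with the block (65.9% in either direction). Ccna2, cyclin A2 (chr3:36564865-36572150, minus strand), ranged from 171 to 238 CPM with a median of 196 in ectoderm and from 243 to 331 CPM with a median of 294 in mesoderm, without overlap. Aurka, a spindle pole kinase, differed by -0.56, Bub1, a kinase of the spindle checkpoint, by -0.53, Plk1, a kinase of mitotic entry, by -0.48, and Top2a, the topoisomerase that untangles sister DNA, by -0.43. The falls were smaller for Ccnb1 (-0.35), Cdk1 (-0.30), Bub1b (-0.29), Aurkb (-0.28) and Ccnb2 (-0.25). Mki67, the proliferation antigen Ki-67, had a difference of -0.15 and was not called on the mean with or without the block.

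By stage, the median difference of these 14 genes was -0.14 at E9.5, then -0.41, -0.43 and -0.40. At E9.5 1 of the 14, Ccna2, was called lower, where 8.29% of all genes were. With the block 4 were lower and 2, Ccnb2 and Mki67, were higher, where 42.4% of all genes were called. The E9.5 call of Ccna2 (-0.51) was lost without any 1 of the 4 libraries of that stage (highest adjusted p 0.166), and under total counts, without the low-count filter and with FPKM. Mki67 was at 549 and 645 CPM in ectoderm and 394 and 481 in mesoderm at E9.5. At E10.5 it was at 418 and 597 CPM against 608 and 587, at E11.5 at 516 and 518 against 690.2 and 673, and at E12.5 at 341 and 622 against 615 and 681. Ectoderm was the higher layer at E9.5, the groups overlapped at E10.5, and at E11.5 ectoderm was lower; at E12.5 its replicates were far apart. Top2a (chr11:98992943-99024189, minus strand) was at 802 and 903 CPM in ectoderm at E9.5 against 837 and 898 in mesoderm, and at 693 and 754 against 1188 and 1140 at E12.5. Its groups overlapped at E9.5 and were well apart at E12.5, where the difference was -0.69. Ccnb2, cyclin B2, went from 106 and 94.2 CPM against 90.1 and 74.8 at E9.5 to 91.5 and 76.6 against 122 and 106 at E12.5, with a change of order between the layers.

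The next comparison followed each layer from E9.5 to E12.5. In ectoderm 9 members fell (7% of all genes) and 1 rose (9.1%, together 16.1%), and with replicate number as a block 24 fell and 3 rose (35.4%). In mesoderm 7 fell (12.6%) and 5 rose (17%, together 29.6%), and with the block 26 fell and 7 rose (51.5%). Without the block the share of members called in mesoderm was near that of all genes, and the share that rose was below it. The 7 called lower in both layers were Mcm10, Cdc6, Pcna, Rrm2, Ccne1, Ccnb1 and Cdk1, and Cdkn2c was called higher in both. With 1 library left out, the ectoderm calls of Pcna and Cdk1 were lost in 12 and 8 of 16 cases, that of Ccnb1 in 4 and that of Cdc6 in 2. The mesoderm calls of Pcna (-0.75 to -0.38) and Ccnb1 were lost in 3 cases each and that of Cdk1 in 2. Without the low-count filter the calls of Pcna and Cdk1 in both layers and of Ccnb1 in ectoderm were lost. The mesoderm call of Cdk1 was also lost with FPKM. The mesoderm call of Ccnb1 was lost under total counts (-0.31, adjusted p = 0.171), without the low-count filter (-0.42, adjusted p = 0.307) and with FPKM (-0.27, adjusted p = 0.198). Surface epithelium markers in ectoderm summed to 3150 and 2690 CPM at E9.5 and 7400 and 5290 at E12.5, erythroid markers to 100 and 752 and then 43.3 and 12.7 CPM, and the median mesenchyme share went from 18.3% and 13.2% to 3.72% and 4.43%. The part of these shifts in the stage changes was not tested. With the block 22 were called lower in both and 2, E2f2 and Cdkn2c, higher in both. By sign alone, 27 members were below 0 in both layers and 9 had opposite signs. How many of all genes were called, or had the same sign, in both layers was not counted. The joint counts of members therefore have no background to set them against.

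Ccne1 had the largest fall in both layers: -1.41 in ectoderm (SE 0.17, adjusted p = 0.000319) and -1.97 in mesoderm (SE 0.17, adjusted p = 3.56e-05). The step from E9.5 to E10.5 was -1.11 in mesoderm and held with any 1 library left out. In ectoderm that step was -0.76 (adjusted p = 0.0297), and the call was lost without either E9.5 replicate or E10.5 replicate 2 (highest adjusted p 0.259) and without the low-count filter. Mcm10 fell by 0.78 in ectoderm and 1.1 in mesoderm, Cdc6 by 0.87 and 0.93, Rrm2 by 0.88 and 0.92, and Pcna by 0.56 and 0.57. Among mitotic genes Ccnb1 fell by 0.57 and 0.47 and Cdk1 by 0.51 and 0.58. Mcm4 (-0.58) and Bub1b (-0.63) were called in ectoderm, and with values of -0.36 and -0.33 they were not called in mesoderm without the block. Both ectoderm calls were lost without any 1 of the 4 ectoderm libraries of E9.5 and E12.5, and without the low-count filter. Over the 16 cases with 1 library left out the values were -0.61 to -0.54 for Mcm4 and -0.71 to -0.55 for Bub1b.

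Genes that rose in mesoderm were of several roles, and their share of the members was below the share of all genes that rose. Ccnd2 rose from 410 and 574 to 1060 and 1131 CPM, a change of 1.16 (SE 0.19, adjusted p = 0.00121). E2f2 rose by 1.73 (SE 0.22, adjusted p = 0.000238), and 1.01 of that was gained by E10.5. The call of that first step was lost in 4 of 16 cases with 1 library left out. Cdkn1b went from 22.4 and 23.4 CPM at E9.5 to 23.3 and 40, 34.4 and 48.0, and 47.9 and 65.6 at E12.5, a rise of 1.31 (SE 0.38, adjusted p = 0.0241), with replicate 2 above replicate 1 at each stage. That call was lost without either mesoderm E9.5 replicate or mesoderm E12.5 replicate 2 (highest adjusted p 0.121). Top2a rose by 0.42 with an adjusted p of 0.0498, which passed the threshold barely and did not pass it without the filter on low counts or in 15 of 16 cases with 1 library left out. Cdkn2c rose in both layers from very few reads. In mesoderm it went from 0.573 and 0.185 to 9.94 and 6.34 CPM, or 15 to 332 counts over the group, a ratio of 20.9. In ectoderm it went from 0.106 and 0.241 to 3.29 and 2.51 CPM, or 5 to 110 counts, a ratio of 15.5 (95% counting interval 6.44 to 48.6, which covers counting error only).

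Step by step, few changes passed the test. From E9.5 to E10.5, Cdkn2c was the 1 member that rose in ectoderm (2.95% of all genes) and Ccne1 the 1 that fell (1.18%, together 4.14%). The Cdkn2c call (3.45) was lost without either ectoderm E9.5 replicate or E10.5 replicate 1 (highest adjusted p 0.19), and with limma on log2(FPKM + 1) the call was lost too, at 0.69. In mesoderm E2f2 rose (5.3%) and Ccne1 fell (3.95%, together 9.24%) over the same step. This E2f2 call was lost without any 1 of the 4 mesoderm libraries of E9.5 and E10.5 (0.93 to 1.09 over the 16 cases), and the mesoderm Ccne1 call held in all. With replicate number as a block, 6 rose and 9 fell in ectoderm (15.3%) and 6 rose and 3 fell in mesoderm (27.7%). From E10.5 to E11.5 edgeR called 0 members in ectoderm (0.00645% of all genes called) and 0 in mesoderm (0.394%), with 1 and 5 at an unadjusted p under 0.05 and 0 and 1 by DESeq2. From E11.5 to E12.5 it called 0 in ectoderm (0.426%) and 0 in mesoderm (0.31%), with 2 and 7 at an unadjusted p under 0.05 and 0 and 1 by DESeq2. With the block the counts stayed at 0 in ectoderm (2.8% and 3.64% of all genes in the 2 steps) and were 2 and 3 in mesoderm (4.81% and 5.19%). Mesoderm Mcm10 fell in both later steps, by 0.43 and 0.54. Mesoderm Cdk6 fell by 1.22 to E11.5, and to E12.5 Bub1 fell by 0.61 and Cdkn2c rose by 1.91.

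**Figure D4:**
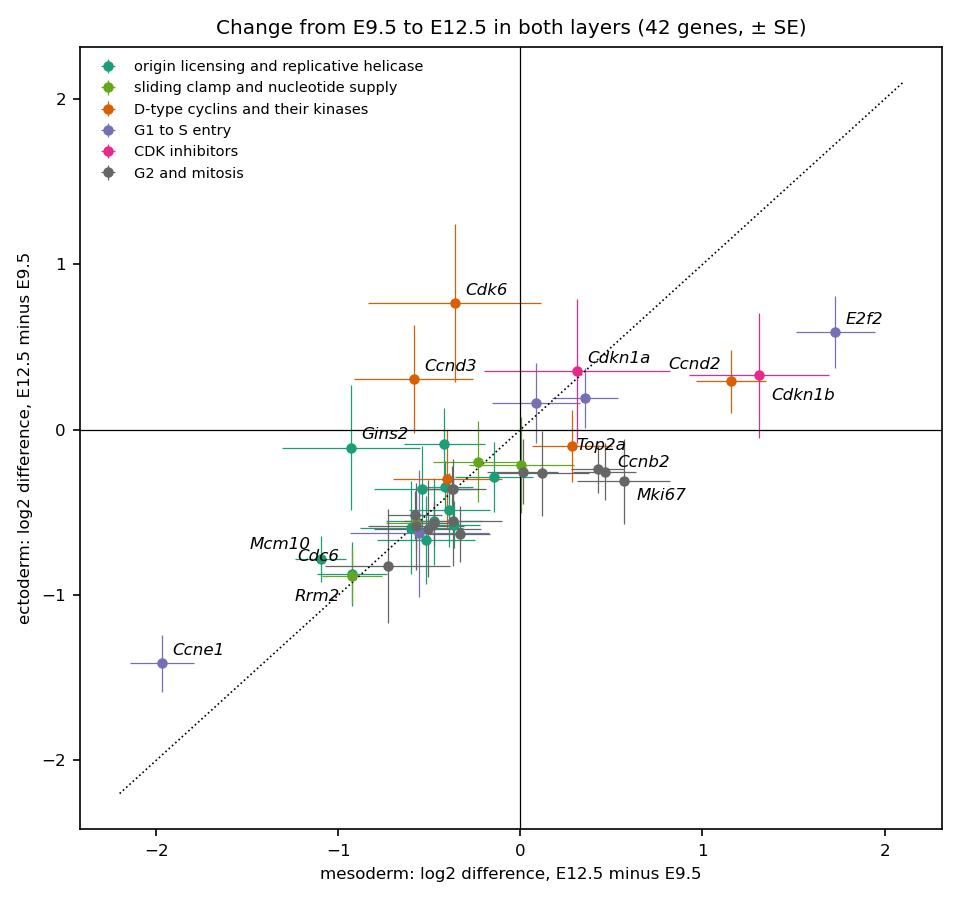
Log2 change from E9.5 to E12.5 in mesoderm (horizontal axis) and ectoderm (vertical axis) for 42 of the genes, each with its SE, coloured by role; Cdkn2c, which rose by 4.36 and 3.91, is left out of the frame and the dotted line marks equal change. Ccne1 lies lowest in both layers (-1.97 and -1.41), and E2f2, Cdkn1b and Ccnd2 lie to the right of the line.

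An interaction term tested whether ectoderm and mesoderm changed by different amounts from E9.5 to E12.5. Levels at the stages between did not enter this difference. Only E2f2 was called (8.27% of all genes called), at -1.14 with an adjusted p of 0.0425: its rise was 1.73 in mesoderm and 0.59 in ectoderm. Leaving out 1 library ended the call in 14 of 16 cases, with values from -1.41 to -0.91 and adjusted p from 0.0388 to 0.182. Blocking on batch gave 11 called members, a share near the 25% of all genes. Neither fit called clearly more of the members than of all genes. The 4 with the more positive change in ectoderm were Cdk6 (1.07), Ccnd3 (0.87), Gins2 (0.77) and Ccne1 (0.55). The 7 with the more negative change in ectoderm were E2f2 (-1.15), Cdkn1b (-0.97), Mki67 (-0.94), Ccnd2 (-0.88), Ccnb2 (-0.72), Top2a (-0.66) and Ube2c (-0.39). For Ccne1 the positive value is a smaller fall in ectoderm.

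Between genes, levels can be compared only as FPKM. Cdk4 had the highest median in both layers, at 610 FPKM in ectoderm and 654 in mesoderm. Next in ectoderm were Ube2c (138), Ccnd2 (124), Ccnd3 (121) and Top2a (116), and next in mesoderm were Rrm2 (226), Ube2c (174), Top2a (174) and Mcm5 (168). The E2F genes among the members were low, with medians of 9.52 FPKM for E2f1 and 3.57 for E2f2 in ectoderm and 17.2 and 6.2 in mesoderm. Cdkn1a stood at 29.6 FPKM in ectoderm and 1.19 in mesoderm. Of the opposite-strand overlaps, after Gins2 the highest shares of exonic bases were 23.4% for Ccnd1, 22.8% for Ube2c, 19.7% for Cdk4 and 17.4% for Ccne2. Ccna2 overlaps Exosc9 by a lower share. The counts of these 5 genes are uncertain too.

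Another 150 genes of the same processes were examined beside the members, and 148 of them were tested. On the layer mean 59 were lower in ectoderm and 14 higher, and 92 and 22 when blocking on batch. Over all genes the shares were 21.4% lower and 24.3% higher, and 65.9% in either direction with the block. Lists are named by theme, and a gene in one need not be part of the complex in its name. In the replication polymerase and fork list 15 of 24 were lower and 0 higher (Pold1 -0.57, Tk1 -0.56, Pole2 -0.53). In the origin recognition and geminin list 6 of 13 were lower and 0 higher (Donson -0.50, Orc3 -0.45). Of the spindle and kinetochore list 16 of 25 were lower and 0 higher (Spc25 -0.50, Tpx2 -0.50). Of the condensation and cohesion list 6 of 14 were lower and 0 higher (Ncapd2 -0.53). Of the anaphase-promoting complex list 4 of 14 were lower (Cdc23 -0.42) and 0 higher, a share near that of all genes. In the RB, E2F and DREAM list 4 of 17 were lower, also near the share of all genes, among them Mybl2 (-0.79), the B-Myb of the mitotic MuvB complex, and Foxm1 (-0.41). In that list 1 was higher, Rb1, the retinoblastoma gene itself, at 1.77 (SE 0.25, adjusted p = 0.000121); its mean levels over the stages were 34.9, 57.3, 51.0 and 39.9 CPM in ectoderm and 8.56, 13.1, 16.6 and 16.6 CPM in mesoderm.

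Lists that hold brakes on the cycle were mixed. On the layer mean 24.3% of all genes were higher in ectoderm and 21.4% lower. Of 18 checkpoint and p53 response genes 8 were higher in ectoderm and 1 lower: Sesn2 (1.25), Gadd45b (1.11) and Gadd45g (1.08) were among those higher and Chek1 (-0.50), a replication checkpoint kinase, was the lower one. Of the 16 further CDK regulators tested, 2 were higher, Ccng1 (0.97) and Pkmyt1 (0.37), and 6 lower, among them Skp2 (-0.63), which targets p27 for degradation, and Cdkn2d (-0.63), the CDK inhibitor p19. Ccng1 is also in the p53 list. Cdkn2b, an inhibitor of Cdk4 and Cdk6, had 0 counts in both ectoderm libraries at E9.5 and 7.92 and 5.41 CPM at E12.5. That is 255 counts over the group, at least 59.8-fold higher against a floor of 3 counts over the group. Mesoderm had 1 count at E12.5, and the ratio of ectoderm to mesoderm there was 271 (95% counting interval 48.2 to 10750, for counting error only and not the spread between libraries). Cdkn1c, the inhibitor p57, went from 156 and 95.5 to 511 and 338 CPM in mesoderm and from 519 and 250.3 to 163 and 109 CPM in ectoderm between E9.5 and E12.5, an interaction of -3.26 (adjusted p = 0.0293).

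In the Myc family 4 of 8 genes were higher in ectoderm (24.3% of all genes) and 1 lower (21.4%). Mycl was higher by 2.40 and Mxd3, a repressor of the family, was lower by 1.79. Myc itself was at 84 and 116 CPM in mesoderm at E9.5, then 16.6 and 13, 4.39 and 5.86, and 9.28 and 4.09 on the next 3 days. In ectoderm it was at 32.1 and 43.1 CPM, 28.8 and 22.2, 9.80 and 25.9, and 61.5 and 35.2. Mesoderm was the higher layer at E9.5 and the lower one at the 3 later stages. The change in mesoderm was -3.89 (adjusted p = 0.000327) and the interaction 4.25 (SE 0.69, adjusted p = 0.00323).

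Replicates differed in a shared direction for part of the genes. Replicate 2 was below replicate 1 in all 8 groups for 17 of the 43 members, as it was for 19% of all genes. It was above replicate 1 in all 8 groups for 4 members, Cdk6, Ccne2, Cdkn1b and Bub1, as it was for 17.8% of all genes. The part of the RNA kit in these differences was not tested.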

How the data were processed

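The authors trimmed, aligned and quantified the reads with STAR 2.6.0c (mm10), cutadapt 1.16, bedtools 2.27.1 and Cufflinks 2.2.1, per the submitters' processing notes. The deposited gene counts are raw counts per gene; the gene counter and its strand setting are not given in the sources used here. The deposited FPKM values are the authors' and per length. Counts were tested with edgeR 4.0.16 (TMM, filterByExpr, quasi-likelihood F test) in R 4.3.3, fitting 8 groups and 14 contrasts together, with Benjamini-Hochberg adjustment over 15501 genes. The sources call replicates biological and give the same embryo batch to both layers. Deviations from group means correlated across layers within batches at r = 0.546, 0.666, 0.561 and 0.651 for the 4 stages, so embryo batch (layer contrasts, interaction) and replicate number (stage contrasts) were added as blocks in alternative fits. Further alternatives were RLE scaling, total counts, no filter, DESeq2 1.42.0, limma 3.58.1 on log2(FPKM + 1), and leaving out each library. Gene positions are from GENCODE M21 (mm10). Members and gene lists were chosen with earlier results of these data known. Any member could be named; other genes were named as at most the 3 largest called changes of a list in each direction, with transcription factors of the E2F and Myc lists, Cdkn1c and Ccng1 besides. The scripts were tested on simulated counts.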

Additional observations from a re-analysis of the deposited data

Results flagged for a closer look

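The change of E2f2 from E9.5 to E12.5 differed between ectoderm and mesoderm by the test of the difference itself: -1.14 on the log2 scale, with an adjusted p of 0.0425 by edgeR. Both replicates rose in both layers, by 1.03 and 0.14 in ectoderm and by 1.74 and 1.71 in mesoderm (replicates 1 and 2). The call was lost in 14 of 16 cases with 1 library left out (adjusted p up to 0.182) and without the filter on low counts (-1.18, adjusted p = 0.0694). It held with the embryo batch as a block (-1.15, adjusted p = 0.00656).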

How the results depend on the processing

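No called value reversed under any alternative, and Cdkn1a kept its 5 layer calls under all of them. The paired fits moved the counts most. With embryo batch as a replicate block the called members were 28, 35, 36 and 34 for ectoderm against mesoderm at the 4 stages in order, and 11 for the interaction. With replicate number as a block they were 25, 35, 34 and 33 for the stages, 10 for the interaction, 27 and 33 for E12.5 against E9.5 in ectoderm and mesoderm, 15 and 9 for E10.5 against E9.5, and 2 and 3 for the later steps in mesoderm. Scaling by total counts gave 22 at E10.5, 22 at E11.5, 4 for ectoderm E10.5 against E9.5 and 3 for the interaction; it moved the median of all genes by 0.186 for mesoderm E12.5 against E9.5, by 0.101 for mesoderm E10.5 against E9.5 and by -0.124 for the interaction. With limma on log2(FPKM + 1) the counts were 22, 24 and 22 at the last 3 stages, 1 for ectoderm E10.5 against E9.5, 1 for mesoderm E12.5 against E11.5 and 5 for the interaction. DESeq2 gave 5 for ectoderm E10.5 against E9.5, 1 for each later mesoderm step and 3 for the interaction. Without the low-count filter the counts were 5 for mesoderm E10.5 against E9.5, 1 for each later mesoderm step and 0 for the interaction. The cause was not tested.

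Leaving out 1 library at a time gave 25 to 35 members called for the layer mean, 4 to 10 at E9.5, 7 to 17 at E10.5, 3 to 15 at E11.5 and 4 to 13 at E12.5. The ranges were 4 to 10 for ectoderm E12.5 against E9.5, 7 to 12 for mesoderm, 0 to 3 and 1 to 2 for E10.5 against E9.5, 0 to 1 for the interaction and 0 to 0 for the other steps. The count of 3 was without ectoderm E11.5 replicate 2. The lone library left in a group is then assumed to vary like the others. Of the 105 called member values, 29 were lost without the low-count filter, 5 with FPKM, 4 with total counts, 2 with RLE scaling, and 0 with DESeq2 or either block; over the 1680 values with 1 library left out, 262 were lost. With 2 libraries a group, a difference that missed the threshold is not shown to be absent.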
